A study of Bos taurus with 23 samples.

Results

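SLC35A3, GLB1L and FN3KRP are 3 genes that handle sugars, and their RNA was followed in the endometrium of 23 lactating Holstein cows. They are 3 of the 24616 genes in the count files. They were chosen because the study placed them on its list of 50 genes that separate cows by later pregnancy, a choice made on samples that include part of these cows. The pregnancy contrast in these cows is therefore a description here, while parity and days from calving were not used in the choice. Co-variation was not used directly. However, the study picked among its gene sets by how samples clustered on their expression, so co-variation is not fully free of the choice. All 3 genes were found by their Ensembl identifiers (SLC35A3, ENSBTAG00000012454; GLB1L, ENSBTAG00000020611; FN3KRP, ENSBTAG00000015390), and all 3 passed the filter on low counts that left 14852 genes for testing.

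SLC35A3 encodes a transporter of the Golgi membrane that carries the activated sugar UDP-N-acetylglucosamine from the cytosol into the Golgi, where transferases use it to build branched N-glycans, O-glycans and glycosaminoglycans. In Holstein cattle the gene is known for complex vertebral malformation, a recessive lethal defect of calves caused by a missense mutation in it; the genotype of these cows was not analysed here. GLB1L encodes a protein related to the lysosomal beta-galactosidase GLB1, the enzyme that removes terminal galactose from glycans. FN3KRP encodes fructosamine-3-kinase-related protein, a kinase that phosphorylates ketosamines, the products of non-enzymatic attachment of sugars to proteins, so that they come off again. The uterine surface and its secretions are rich in glycoproteins, and glycans are part of how endometrium and early embryo meet.

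Each cow gave 1 library from an endometrial biopsy taken on day 6 to 8 of the cycle, in dioestrus. One embryo produced in vitro was transferred to the same cow on the matching days of the next cycle, and pregnancy was read at slaughter between days 26 and 47. The pregnant group held 12 cows (7 of parity 1, 2 of parity 2 and 3 of parity 3), and the non-pregnant group 11 (5 of parity 1, 3 of parity 2 and 3 of parity 3). All cows were Holstein and all received an embryo, and the biopsies came from the cycle before the transfer. The interval from the last calving to transfer ran from 128 to 274 days, with a median of 173.5 days in pregnant and 180 days in non-pregnant cows.

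Libraries held between 6920879 and 27357249 counts in genes. Pregnant replicates 20 and 21 had 75.5% and 76.7% of reads outside genes, against 39.2 to 59.6% in the other 21 libraries, and they were also the shallowest libraries (9171434 and 6920879 counts in genes). A further 4 libraries, replicates 4 and 6 of the non-pregnant cows with 22 and 23 of the pregnant ones, scored 49.7 to 97.8 on the first principal component, which took 43.2% of the variance. No other library scored above 9.75. Most fitted values are also given without some or all of these 6 libraries. The files name genes by identifier alone, and the lists of related pathway genes and of cell type markers could not be tied to identifiers. Thus, the tissue could not be checked against its markers, and the other genes of these pathways have no values here.

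SLC35A3 had the widest spread between cows of the 3 genes. It had 922 to 6764 reads per library, and its level, in CPM (counts scaled to library size after TMM normalization), ran from 70.9 to 360.9 with a median of 159.7 over 23 cows. The cow with the highest level stood 5.09-fold above the cow with the lowest. The SD of log2 CPM around the group means was 0.69, larger than in 69.0% of the 14852 tested genes (median 0.45). Its mean log2 CPM was above that of 93.4% of the tested genes.

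GLB1L had 121 to 1048 reads per library and a median of 34.4 CPM, with a range of 16.1 to 49.6 CPM. Its SD around the group means was 0.37 on the log2 scale, larger than in 38.6% of tested genes. The lowest level, 16.1 CPM, was that of pregnant replicate 21, and the remaining 22 cows lay between 23.0 and 49.6 CPM. FN3KRP was the steadiest of the 3, with 108 to 771 reads per library, a median of 25.7 CPM and a range of 14.0 to 30.1 CPM. Its SD was 0.28 on the log2 scale, larger than in 20.9% of tested genes. In non-pregnant cows its coefficient of variation was 8.18%, and in pregnant cows 23.9%. These levels are not on a scale per length, so they are not compared between the 3 genes. The place of the SLC35A3 mean among all tested genes also takes no account of length. In the RefSeq annotation GLB1L overlaps ANKZF1 and SLC35A3 overlaps the uncharacterized LOC112446155, and since the strand setting of the counting is not given in the sources used here, reads of overlapping genes may not be told apart.

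The libraries that stand apart were low for some of the genes. SLC35A3 was at 70.9, 78.8, 80.6 and 93.1 CPM in the 4 libraries apart on the first component, and at 77.0 to 360.9 CPM in the other 19. Thus these 4 were among the 6 lowest of 23 cows, although 2 cows outside that set (pregnant replicates 5 and 15, at 77.0 and 88.8 CPM) were as low. In these 4 libraries GLB1L was at 23.9, 33.9, 34.6 and 35.4 CPM and FN3KRP at 19.5, 22.7, 28.5 and 29.0 CPM, within the ranges of the other 19. FN3KRP was at 14.0 and 14.4 CPM in pregnant replicates 20 and 21, the 2 lowest values of all, with the other 21 libraries between 17.6 and 30.1 CPM. In pregnant replicates 20 and 21 GLB1L was at 23.6 and 16.1 CPM, and SLC35A3 at 163.7 and 344 CPM, the first of these near the median. What part the state of these libraries has in the values was not tested.

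**Figure D1:**
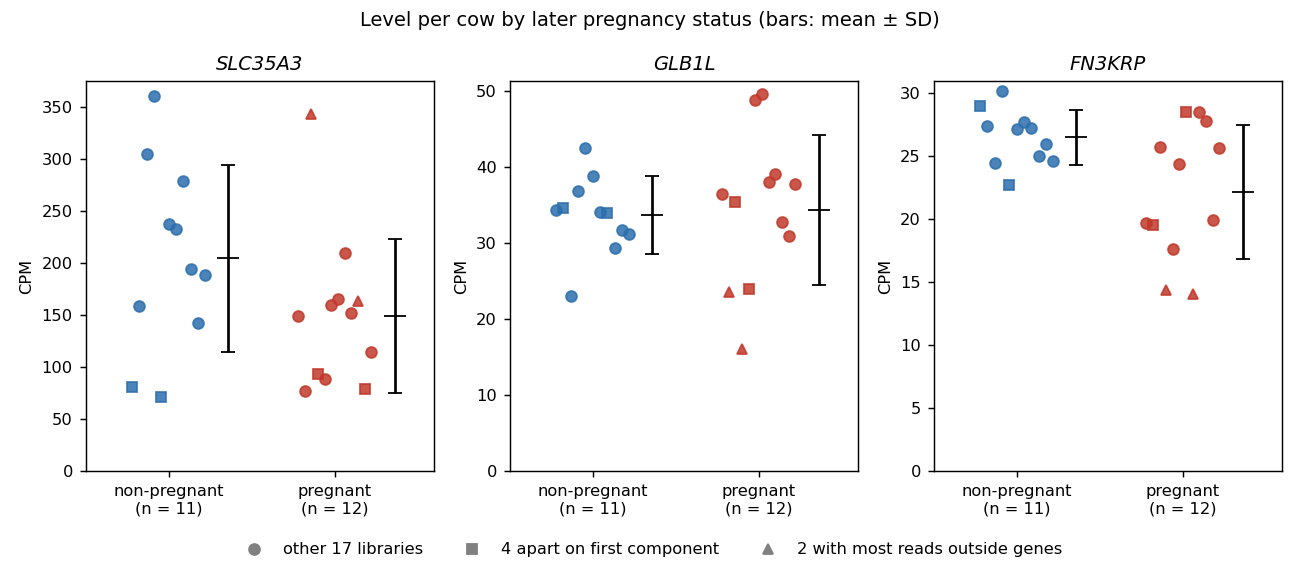
CPM of SLC35A3, GLB1L and FN3KRP in each of 23 cows, by pregnancy status after transfer; each point is a cow, the bars are mean ± SD, squares are the 4 libraries apart on the first component and triangles the 2 with most reads outside genes. The groups overlap for all 3 genes; SLC35A3 spans 70.9 to 360.9 CPM, and the 2 lowest FN3KRP values, 14.0 and 14.4 CPM, are the triangles.

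The first comparison, pregnant against non-pregnant, is the one the genes were chosen on. SLC35A3 ran from 77.0 to 344 CPM with a median of 150.7 in pregnant cows, and from 70.9 to 360.9 CPM with a median of 194.5 in non-pregnant cows. The means were 149.7 ± 74.1 (SD, n = 12) and 204.7 ± 90.3 (SD, n = 11). Of the 12 pregnant cows, 10 lay below the non-pregnant median, and the groups overlapped over nearly all of their ranges. The fitted difference, pregnant minus non-pregnant, was -0.45 on the log2 scale (SE 0.27). Without pregnant replicates 20 and 21 it was -0.67, and without the 6 libraries that stand apart -0.75; the second is more than 1.5 times the value over all cows.

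FN3KRP had a median of 22.1 CPM in pregnant cows (14.0 to 28.5) and of 27.2 CPM in non-pregnant cows (22.7 to 30.1). The means were 22.1 ± 5.28 (SD, n = 12) and 26.5 ± 2.17 CPM (SD, n = 11). The upper ends of both groups lay close together, and 6 pregnant cows fell below the lowest non-pregnant cow. The fitted difference was -0.26 (SE 0.12). Without pregnant replicates 20 and 21, the 2 lowest values, it was -0.16. GLB1L had a median of 35.9 CPM in pregnant cows (16.1 to 49.6) and 34.0 CPM in non-pregnant cows (23.0 to 42.5), with means of 34.3 ± 9.84 and 33.7 ± 5.10 CPM. The pregnant group held both the lowest and the highest values. Its fitted difference was 0.03 (SE 0.15), and 0.14 without pregnant replicates 20 and 21 or 0.21 without all 6 libraries that stand apart. Leaving out 1 cow gave -0.03 without pregnant replicate 18, pregnant replicate 15 or non-pregnant replicate 2, and 0.10 without pregnant replicate 21, so the sign was not settled.

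Across the series, edgeR's quasi-likelihood test called 0 of 14852 genes between the groups (0%), with 1556 genes at an unadjusted p under 0.05 (10.5%), and DESeq2 called 10. The median log2 fold change of all tested genes was 0.03. No p is given for the 3 genes, since this contrast chose them. In bulk tissue, fewer cells of a type and less RNA per cell cannot be told apart, which holds for every difference given here.

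Whether the group difference depends on parity was asked with an interaction of pregnancy status and parity class, 1 against 2 or 3. For SLC35A3, the 7 pregnant cows of parity 1 ran from 77.0 to 166.1 CPM with a median of 114.3. The 5 non-pregnant cows of parity 1 were at 70.9, 158.5, 188.8, 233.3 and 304.9 CPM. In parity 2 or 3, the 5 pregnant cows were at 88.8, 149, 152.4, 209.9 and 344 CPM. The 6 non-pregnant cows ran from 80.6 to 360.9 CPM with a median of 216. Within both parity classes the groups overlapped.

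The difference, pregnant minus non-pregnant, in SLC35A3 was -0.65 (SE 0.37) on the log2 scale in parity 1 and -0.19 (SE 0.38) in parity 2 or 3. The interaction was 0.46 (SE 0.53, 95% interval -0.64 to 1.56), with p = 0.398 and an adjusted p of 0.988 by edgeR's quasi-likelihood test. Without pregnant replicate 21 it was 0.13, and without the 6 libraries that stand apart 0.08. For GLB1L the differences were -0.06 (SE 0.21) and 0.15 (SE 0.21), with an interaction of 0.21 (SE 0.30, adjusted p = 0.988), which was 0.35 without pregnant replicates 20 and 21. For FN3KRP they were -0.26 (SE 0.17) and -0.22 (SE 0.17), with an interaction of 0.04 (SE 0.24, adjusted p = 0.995), which was 0.09 without those libraries and 0.20 without all 6. The intervals of all 3 interactions span 0 and are wide, reaching 1.56, 0.83 and 0.54 at the upper end. Over all genes the test called 0 of 14852 (0%), with 443 at an unadjusted p under 0.05 (2.98%), and DESeq2 called 0.

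Parity was the next comparison, with pregnancy status and days from calving held in the model. SLC35A3 had a median of 159.1 CPM in the 12 cows of parity 1 (70.9 to 304.9) and of 194.5 CPM in the 11 cows of parity 2 or 3 (80.6 to 360.9). By parity number, the 5 cows of parity 2 were at 80.6, 88.8, 149, 278.8 and 360.9 CPM, and the 6 cows of parity 3 ran from 142.5 to 344 CPM. Parity 2 thus held both low and high cows, and no cow of parity 3 was under 142.5 CPM. The fitted difference, parity 2 or 3 minus parity 1, was 0.66 on the log2 scale (SE 0.24, 95% interval 0.16 to 1.16), a fold of 1.58. Its p was 0.0123 and its adjusted p over all genes 0.73 by edgeR's quasi-likelihood test, so it did not pass.

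That test called 0 of 14852 genes for parity (0%), with 1007 genes at an unadjusted p under 0.05 (6.78%), and DESeq2 called 1. SLC35A3 was the only one of the 3 genes at that level. SLC35A3 was higher with parity 2 or 3 within both groups, in fits added after seeing the data. The difference was 0.67 on the log2 scale in pregnant cows alone (SE 0.27, p = 0.0289 by edgeR's quasi-likelihood test). In non-pregnant cows alone it was 0.75 (SE 0.51, p = 0.171 by the same test). Neither passed after adjustment over all genes. Cows of parity 2 or 3 were also further from calving (median 187 against 161.5 days), and with pregnancy status as the only covariate the difference was 0.41 (p = 0.131 by edgeR's quasi-likelihood test). Without the 6 libraries that stand apart it was also 0.41, and without pregnant replicate 21 it was 0.51 (p = 0.0607).

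GLB1L had a median of 34.0 CPM in parity 1 (23.0 to 39.0) and of 34.6 CPM in parity 2 or 3 (16.1 to 49.6), which spread to both sides of the first. FN3KRP had medians of 24.4 CPM (14.0 to 28.5) and 27.2 CPM (14.4 to 30.1). The fitted parity difference was 0.07 (SE 0.16, 95% interval -0.25 to 0.39, adjusted p = 0.931) for GLB1L and 0.09 (SE 0.13, 95% interval -0.18 to 0.36, adjusted p = 0.889) for FN3KRP by edgeR's quasi-likelihood test. These intervals reach 0.39 and 0.36, so a difference up to those sizes lay within the error. Without pregnant replicates 20 and 21 the differences were 0.17 for GLB1L and 0.16 for FN3KRP. Without pregnant replicate 21 alone they were both 0.19, without pregnant replicate 18 that of GLB1L was -0.06, and without pregnant replicate 10 that of FN3KRP was 0.04.

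**Figure D2:**
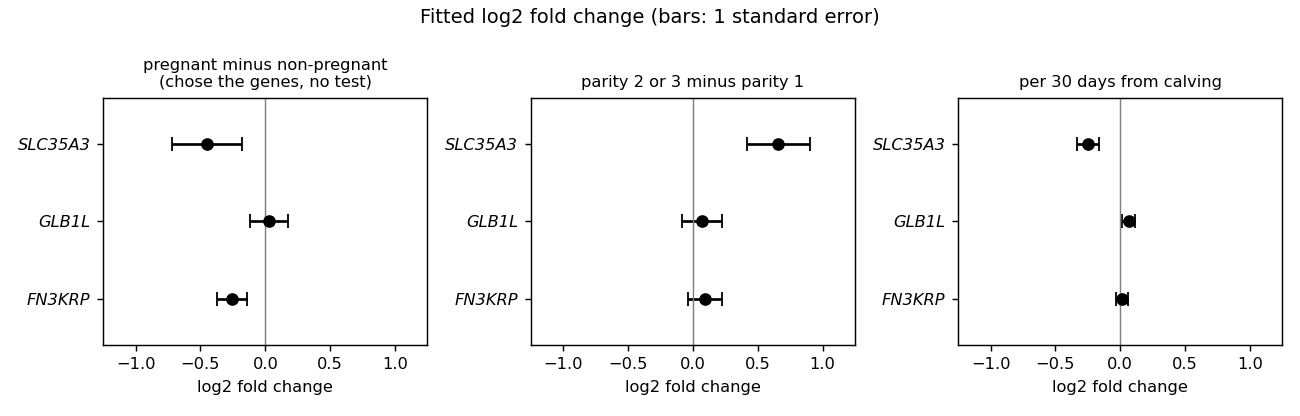
Fitted log2 fold change of SLC35A3, GLB1L and FN3KRP for pregnancy status, parity class and days from calving (per 30 days); points are edgeR estimates over 23 cows and bars are 1 standard error, with 0 marked by a line. SLC35A3 lies at -0.45, 0.66 and -0.25, whereas GLB1L and FN3KRP lie near 0 for parity and days.

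Days from calving gave the smallest unadjusted p of the 3 genes, again for SLC35A3. The 11 cows below the median of 174 days ran from 93.1 to 344 CPM with a median of 166.1. The 12 cows at or above it ran from 70.9 to 360.9 CPM with a median of 128.4. The 5 lowest of all 23 cows were among the later cows, but so was the highest.

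Within parity 1 the order was clearer. The 6 cows at 128 to 156 days ran from 159.7 to 304.9 CPM, with a median of 177.4. The 6 cows at 167 to 261 days ran from 70.9 to 158.5 CPM, with a median of 86.0. These sets were split at their median of days after the values were seen. They did not overlap, but their nearest cows were at 158.5 and 159.7 CPM. Of the 6 later cows, 3 were libraries that stand apart on the first component. How many of the tested genes this split would also separate was not counted. In parity 2 or 3 the earlier and later cows did overlap. There the 5 cows at 145 to 180 days were at 149, 152.4, 194.5, 344 and 360.9 CPM, and the 6 cows at 187 to 274 days ran from 80.6 to 278.8 CPM with a median of 176.2.

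With status and parity class in the model, SLC35A3 changed by -0.25 on the log2 scale per 30 days (SE 0.083, 95% interval -0.42 to -0.08), a fold of 0.842. Its p was 0.00684 and its adjusted p over all genes 0.925 by edgeR's quasi-likelihood test, so it did not pass. That test called 0 of 14852 genes for days (0%), with 793 genes at an unadjusted p under 0.05 (5.34%), and DESeq2 called 1. In fits added after seeing the data, the slope was negative in all 4 subsets of cows fitted alone. It was -0.23 in pregnant cows, -0.31 in non-pregnant cows, -0.27 in parity 1 and -0.22 in parity 2 or 3. The subsets by status and by parity hold the same cows, so they are not separate results. Under the alternatives, these subsets included, p of the slope by edgeR or DESeq2 ran up to 0.17. The slope was -0.20 without pregnant replicates 20 and 21, -0.18 without the 6 libraries that stand apart and -0.23 with the first principal component added to the model. With status as the only covariate it was -0.17 (p = 0.0662 by edgeR's quasi-likelihood test).

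GLB1L and FN3KRP did not pass the test for days either. GLB1L had a median of 31.2 CPM below 174 days (16.1 to 48.8) and of 35.0 CPM from 174 days on (29.4 to 49.6). Its 4 lowest cows were all among the earlier cows, and its slope was 0.06 per 30 days (SE 0.051, 95% interval -0.04 to 0.17, adjusted p = 0.965). The slope was 0.02 without pregnant replicates 20 and 21, which are among those 4 cows, and 0.01 without all 6 libraries that stand apart. It was 0.03 without pregnant replicate 21 alone, 0.04 without pregnant replicate 15 and 0.10 without pregnant replicate 18. FN3KRP had medians of 24.5 CPM (14.0 to 27.7) and 26.5 CPM (17.6 to 30.1), and a slope of 0.01 (SE 0.044, 95% interval -0.08 to 0.10, adjusted p = 0.999 by edgeR's quasi-likelihood test). The sign of the FN3KRP slope turned when pregnant replicates 20 and 21, both at 150 to 156 days, were left out.

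**Figure D3:**
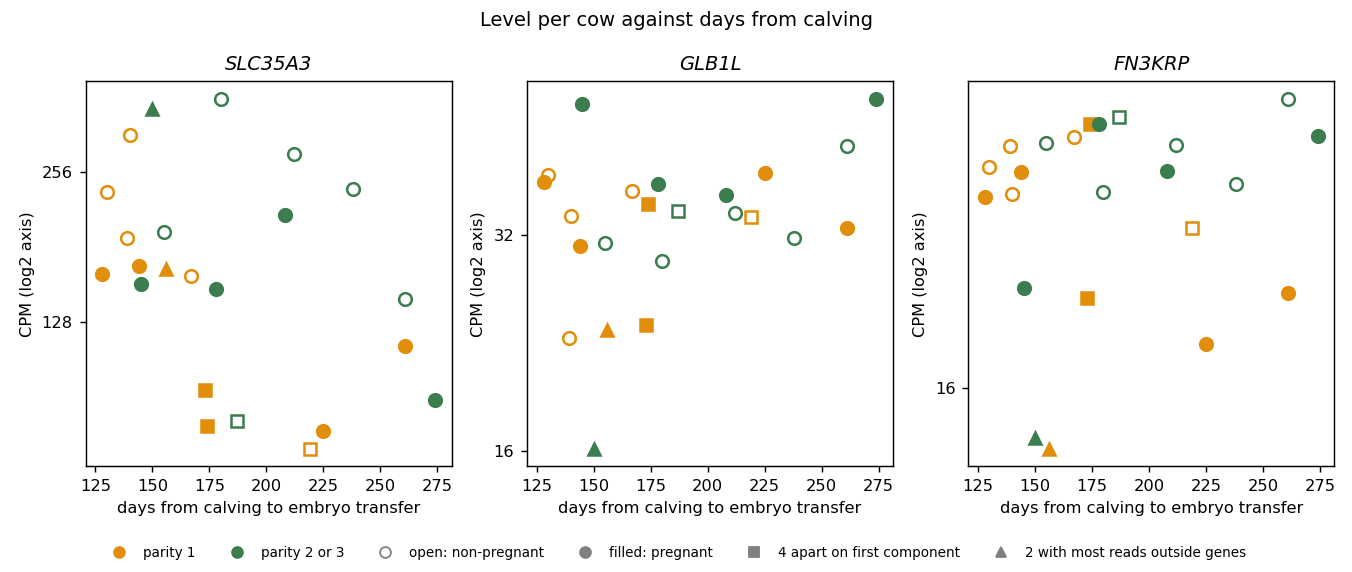
CPM (log2 axis) of SLC35A3, GLB1L and FN3KRP in each of 23 cows against days from calving to embryo transfer; colour gives parity class, open points are non-pregnant cows, squares the 4 libraries apart on the first component and triangles the 2 with most reads outside genes. For SLC35A3, the parity 1 cows from 167 days on lie at or below 158.5 CPM, while those before lie at or above 159.7 CPM. This split was made after the values were seen.

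Co-variation asked whether the 3 genes rise and fall together from cow to cow, after the mean of each pregnancy group was taken out. GLB1L and FN3KRP went together, with Pearson r = 0.596 (permutation p = 0.0139, adjusted 0.0416 over the 3 pairs) and Spearman rho = 0.451 (permutation p = 0.0531, adjusted 0.159). The permutation tests were two-sided and shuffled cows within groups. Leaving out the 2 cows farthest from the median of GLB1L gave r = 0.50. Without pregnant replicates 20 and 21, r was 0.210 (permutation p = 0.431), and without the 6 libraries that stand apart 0.0949. The size of r over all cows therefore rested on pregnant replicates 20 and 21, where both genes were low. In pregnant cows alone r was 0.654 and in non-pregnant cows alone, which hold neither library, 0.251 (permutation p = 0.460). Spearman rho did not differ between the groups in this way. It was 0.476 in pregnant cows (permutation p = 0.121) and 0.491 in non-pregnant cows (permutation p = 0.127). Over both groups, however, rho fell to 0.222 without pregnant replicates 20 and 21 (permutation p = 0.375). Without the 6 libraries that stand apart, rho was 0.152 (permutation p = 0.571).

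SLC35A3 had negative correlations with both other genes, and neither passed. Its r was -0.377 with GLB1L (permutation p = 0.068, adjusted 0.102; rho = -0.299, permutation p = 0.164) and -0.239 with FN3KRP (permutation p = 0.259, adjusted 0.259; rho = -0.118, permutation p = 0.586). Without the 2 cows farthest from the median of SLC35A3, these were -0.446 and -0.352. Without pregnant replicates 20 and 21 they were -0.0882 and 0.0693. Without the 4 libraries that score high on the first component, r with GLB1L was -0.588 (permutation p = 0.0185, adjusted 0.0277). In those 19 libraries rho was -0.530 (permutation p = 0.026, adjusted 0.0781), and r was -0.330 without the 2 cows farthest from the median of SLC35A3. Without all 6 libraries that stand apart, r with GLB1L was -0.295 (permutation p = 0.265). Thus, the size of this relation changed with which libraries were held in, and leaving out pregnant replicate 21 alone gave -0.143.

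**Figure D4:**
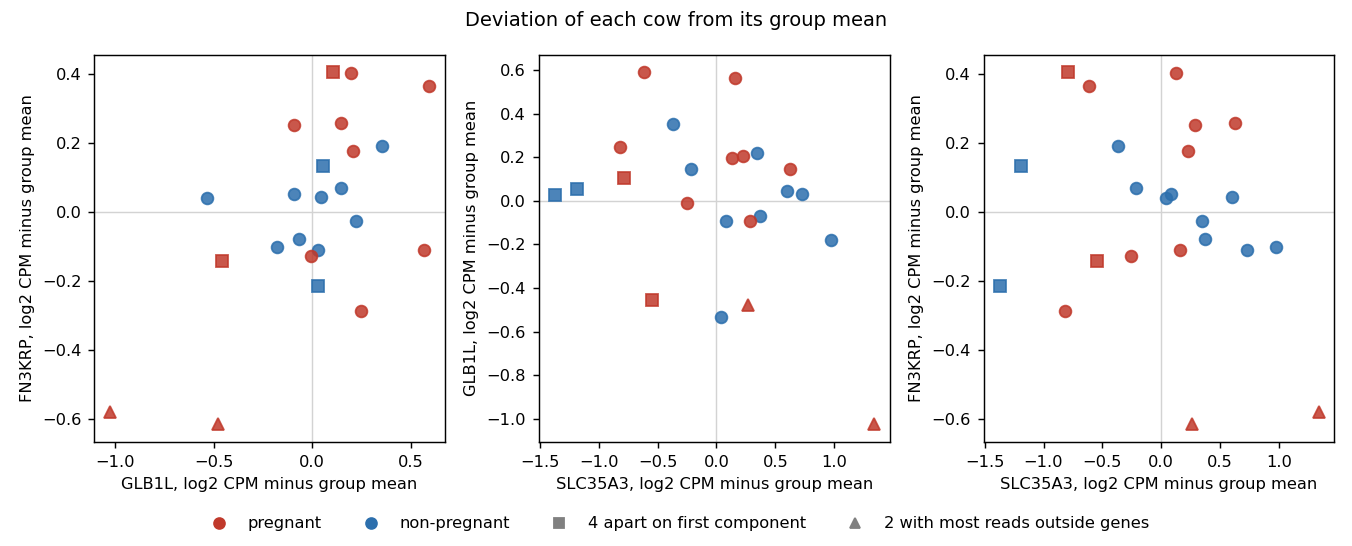
Deviation of each of 23 cows from the mean of its pregnancy group in log2 CPM, for the 3 pairs of SLC35A3, GLB1L and FN3KRP; squares are the 4 libraries apart on the first component and triangles the 2 with most reads outside genes. GLB1L and FN3KRP have r = 0.596 over all cows and 0.210 without the triangles.

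The depth and state of the libraries were then set against each gene. Over 9 relations adjusted together, GLB1L rose with the log2 of counts in genes (r = 0.606, permutation p = 0.0102, adjusted 0.0459; rho = 0.434, permutation p = 0.0501, adjusted 0.15), and so did FN3KRP (r = 0.639, permutation p = 0.00647, adjusted 0.0459; rho = 0.512, permutation p = 0.0246, adjusted 0.111). Leaving out the 2 libraries of most extreme depth gave r of 0.228 and 0.306, and leaving out pregnant replicates 20 and 21 gave 0.154 and 0.234. Both relations thus rested on those shallow libraries. For SLC35A3, r with depth was -0.298 (permutation p = 0.157). With the share of reads outside genes, over the 21 libraries that do not stand apart on it, r was -0.150, 0.263 and 0.249 for SLC35A3, GLB1L and FN3KRP (permutation p = 0.528, 0.262 and 0.286).

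Along the first principal component, within the 19 libraries that form 1 cluster, FN3KRP had r = -0.690 (permutation p = 0.0156, adjusted 0.0468; rho = -0.614, permutation p = 0.0182, adjusted 0.111). Without pregnant replicates 20 and 21 its r was -0.596 (permutation p = 0.0457) but its rho -0.353 (permutation p = 0.213). GLB1L had r = -0.330 in the 19 libraries (permutation p = 0.279) and 0.197 without pregnant replicates 20 and 21 (permutation p = 0.475). SLC35A3 had r = -0.0761 (permutation p = 0.794), and without those 2 libraries -0.567 (permutation p = 0.0169; rho = -0.498, permutation p = 0.0499). The values over 17 libraries are not adjusted over the relations. The component is computed from all tested genes, the 3 genes included. The part of depth and library state in the relations between the genes was not tested.

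The genes whose pattern was most like each of the 3 were ranked by Spearman rho over 23 cows, with group means taken out, among 13001 other genes with a mean log2 CPM of at least 1. For SLC35A3 the closest were ENSBTAG00000001424 (rho = 0.931) and ENSBTAG00000019291 (rho = 0.929), and 218 genes had a rho above 0.7. For FN3KRP they were ENSBTAG00000002693 (0.866) and ENSBTAG00000009491 (0.835), with 61 genes above 0.7. For GLB1L they were ENSBTAG00000016954 (0.788) and ENSBTAG00000038284 (0.751), with 13 genes above 0.7. Over all 23 cows, SLC35A3 thus shared its order of cows with many more genes than GLB1L did. These counts were not taken without the libraries that stand apart. SLC35A3 also had more reads and a wider spread than GLB1L, and their part in the counts was not tested. The closest gene to SLC35A3 had a rho of 0.833 without the 6 libraries that stand apart. All of these points share the same libraries and scaling.

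Symbols are known for the 49 other genes of the study's list, which were looked at after the values were seen. SLC35A3 went most closely with ZSCAN12, a zinc finger gene (rho = 0.679), CCNG2, a cyclin linked to cell cycle arrest (0.667), and ACADM, an enzyme of fatty acid oxidation (0.629). GLB1L went with TLE4, a transcriptional corepressor (0.601), EBF4 (0.591) and RARRES1, a gene induced by retinoids (0.563), and opposite to CTBP2, a further corepressor (-0.627). FN3KRP went with CTU2, which takes part in the modification of transfer RNA (0.639), and opposite to FRS2, an adaptor of growth factor receptors, and TRIB1 (both -0.476). Several of these fell without the 6 libraries that stand apart: SLC35A3 had a rho of 0.319 with ZSCAN12, 0.370 with CCNG2 and 0.569 with ACADM, which was then the highest of these 3, and GLB1L had 0.348 with EBF4. These are orders of the same cows and not tests, and the genes named lie at the ends of the 49. Of the 13001 genes, 97.8% had a lower rho with SLC35A3 than ZSCAN12 had. For GLB1L, 99.2% had a lower rho than TLE4 and 0.162% a lower one than CTBP2. For FN3KRP, 98.7% had a lower rho than CTU2 and 4.62% a lower one than FRS2. The list was chosen in part on these cows, and it gives SLC35A3, ZSCAN12, CCNG2 and ACADM as lower in pregnant animals. It gives GLB1L, TLE4, EBF4 and RARRES1 as higher there and CTBP2 as lower. FN3KRP, CTU2 and FRS2 are given as lower and TRIB1 as higher. What part the making of the list has in these relations was not tested.

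The largest of these relations was an opposite one, between SLC35A3 and BHLHE40, a transcriptional repressor that responds to hypoxia and to the circadian clock. The study lists BHLHE40 as higher in pregnant animals and SLC35A3 as lower. The Spearman correlation was -0.810 over 23 cows, lower than with all but 0.200% of the 13001 genes. BHLHE40 was at 8.54 CPM in the cow with the highest SLC35A3 (360.9 CPM, non-pregnant replicate 19) and at 166.9 CPM in the cow with the lowest (70.9 CPM, non-pregnant replicate 4). Its highest level, 552.1 CPM, was in pregnant replicate 23, where SLC35A3 was at 93.1 CPM. BHLHE40 lay between 30.6 and 552.1 CPM in the 4 libraries apart on the first component and between 8.54 and 64.8 CPM in the other 19. Without those 4 libraries rho was -0.739, without all 6 that stand apart -0.779, and it was -0.748 in pregnant and -0.891 in non-pregnant cows.

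**Figure D5:**
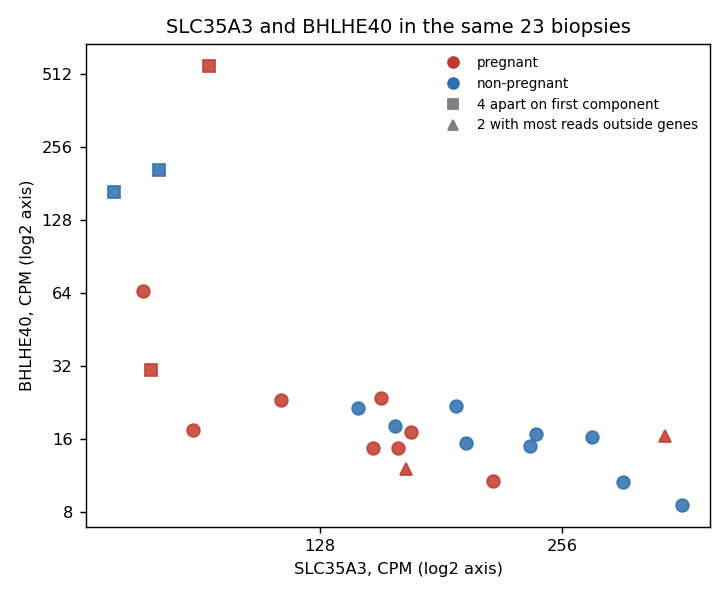
CPM of BHLHE40 against CPM of SLC35A3 in 23 cows, both on log2 axes; red is pregnant, blue non-pregnant, squares are the 4 libraries apart on the first component and triangles the 2 with most reads outside genes. BHLHE40 is at 8.54 CPM where SLC35A3 is highest (360.9 CPM) and at 166.9 CPM where it is lowest (70.9 CPM), with rho = -0.810.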

How the data were processed

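Total RNA of endometrial biopsies kept in RNAlater was prepared, per the labels, with the stranded Illumina TruSeq protocol. STAR, HTSeq and the assembly UMD 3.1 are named in the submitters' processing notes; with these the authors made 1 file of counts for each cow. The deposited values are raw counts per Ensembl gene without normalization. The sources used here do not give tool versions, annotation release or strand setting. HTSeq's rows for reads outside genes (39.2 to 76.7% of reads) and ambiguous reads (0.00338 to 0.00941%) were left out of library sizes and tests. Between libraries of 1 group, the lowest chi-square per degree of freedom was 30.5, so no library was taken as deposited more than once.

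Cows were grouped by labelled pregnancy status and numbered as in the titles. The study used part of these cows, which the labels do not identify, so all 23 entered. Genes were filtered and scaled by TMM, and tested with the quasi-likelihood test of edgeR 4.0.16 in R 4.3.3 (14852 of 24616 genes, Benjamini-Hochberg adjusted p of 0.05). Pregnancy status was fitted alone; parity class and days (per 30 days) were fitted together with status; the interaction was fitted with status and parity class. CPM values use library sizes corrected by TMM, and log2 CPM used a prior count of 2. Correlations used 100000 permutations of cows within groups, two-sided, with status means removed. Where libraries formed separate clusters on a measure, the correlation was taken within the larger cluster, although it had been planned over all cows. The pipeline was tested on simulated data. Alternatives were DESeq2 1.42.0 (size factors, Wald test, vst), no filter, a minimum of 1 CPM in 11 or more libraries, other covariates, other prior counts, and leaving out libraries; fits within groups and parities and with the first principal component were added after seeing the data.

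The members and lists were chosen with earlier results of these data known. Named genes were the 3 members, each member's nearest relative (SLC35A2, GLB1 and FN3K), called pathway genes, and up to 5 genes of most alike pattern, with at most 2 identifiers where no symbol is known. The 5 pathway lists and 9 cell type marker lists were not used, because the reference table, RefSeq of another assembly, holds 0 Ensembl identifiers; the relatives have no values for the same reason. Symbols of the 50 listed genes are those of the study.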

Additional observations from a re-analysis of the deposited data

How the results depend on the processing

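Over the planned and added alternatives and the fits that left out 1 cow, 0 of 315 tested values of the 3 genes for parity, days and interaction had an adjusted p under 0.05 by edgeR or DESeq2. DESeq2's Wald test called 10 genes for pregnancy, 1 for parity and 1 for days, where edgeR called 0; leaving out 1 cow, edgeR called 0 to 1 for pregnancy. SLC35A3 kept its sign in all of these. Its parity class difference was 0.41 to 0.75 under the alternatives, and its slope on parity number as a linear term was 0.38. Per 30 days it was -0.31 to -0.17 under the alternatives. When 1 cow was left out, the ranges were 0.51 to 0.84 for parity class and -0.33 to -0.21 per 30 days. The parity difference of GLB1L turned to -0.0877 in non-pregnant cows alone and ran from -0.0592 to 0.188 when 1 cow was left out. The days slope of FN3KRP turned to -0.0273 without pregnant replicates 20 and 21, -0.0223 without the 6 libraries that stand apart, -0.0119 in non-pregnant cows alone and -0.0739 in parity 1 alone, and ran from -0.0140 to 0.0291 when 1 cow was left out. The interaction of FN3KRP ran from -0.0464 to 0.165 on leaving out 1 cow. Co-variation of SLC35A3 with GLB1L was -0.588 without the 4 libraries that score high on the first component, and -0.295 without all 6 that stand apart. With FN3KRP it turned to 0.0693 without pregnant replicates 20 and 21 and 0.0668 without all 6, where GLB1L with FN3KRP fell to 0.210 and 0.0949. Leaving out 1 cow gave -0.454 to -0.143 for SLC35A3 with GLB1L, -0.365 to -0.0361 for SLC35A3 with FN3KRP and 0.432 to 0.672 for GLB1L with FN3KRP, whose adjusted p rose above 0.05 in 8 of 23 cases. The cause was not tested. No paired analysis was possible because the replicate numbers run through both groups and none is shared. With 108 to 771 reads per library, FN3KRP carries the most counting error of the 3 genes.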
